A study of Mus musculus with 12 samples.

Results

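The effect of LKB1 loss on macrophages stimulated with IL-4 was described across all genes by setting 3 RNA-seq libraries of LKB1-deficient macrophages with IL-4 against 3 of wild-type macrophages with IL-4, which are 6 of the 12 libraries of the study. The KO cells came from LysMCre Stk11 fl/fl mice, in which Cre made from the Lyz2 locus deletes the floxed Stk11 gene in macrophages, granulocytes and other myeloid cells, and the WT cells are labelled WT with no further allele. All cultures were macrophages derived from bone marrow in 7 days of M-CSF at 40 ng/ml, which turns marrow precursors into macrophages. The cells of the 6 libraries described here then received 20 ng/ml IL-4 for 24 h. The other 6 libraries, 3 KO and 3 WT, were mock-treated and enter only where the genotype difference with IL-4 is set against that without it. Whether the WT cells carry Cre or the floxed allele is not stated, so an effect of the Cre allele and of the loss of Stk11 cannot be told apart. The labels do not say whether libraries of a group came from separate mice. The p-values rest on the spread between libraries, and whether that covers the spread between mice is not known.

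LKB1, the product of Stk11, is a kinase that switches on AMPK and a family of related kinases, among them the salt-inducible kinases. AMPK slows growth and lipid synthesis when cellular energy is low, and the salt-inducible kinases keep the CRTC coactivators of the transcription factor CREB out of the nucleus. IL-4 binds the receptor chain IL-4Rα, paired with the common gamma chain or with IL-13Rα1. It acts through JAK kinases and STAT6, and it turns macrophages towards an alternative state marked by arginase-1, RELMα and related products.

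With IL-4, 2579 of the 13715 genes (18.8%) differed between KO and WT at a Benjamini-Hochberg adjusted p under 0.05 in edgeR's quasi-likelihood test. Of these, 1176 (8.57%) were higher and 1403 (10.2%) lower in KO, and these are the background shares against which the gene groups below are read. Only 227 (1.66%) were higher and 320 (2.33%) lower by at least 2-fold, so most of the called differences were small. The gene groups were chosen with earlier results of these data known, so their shares can exceed the background in part through that choice. The libraries held 31971167 to 39136822 counts, and the genotype lay along the first principal component, which took 65.6% of the variance over 8126 genes. On the second (19.8%), WT library 2 lay at -14.75, against 7.20 and 8.51 for WT libraries 1 and 3. Its deviations from the group mean ran towards short genes (rho with gene length -0.399, against 0.291 and 0.229). In KO libraries that rho was -0.208, 0.108 and 0.108. KO library 2 stood apart at Lyz2, the lysozyme gene that carries Cre, which had 15362, 43.4 and 15817 CPM in KO libraries, against 28471, 29046 and 31113 CPM in WT libraries with IL-4. KO library 2 was thus far under the other 2 KO libraries, and it was so in mock, at 21618, 43.1 and 21044 CPM in KO and 44637, 42157 and 39652 CPM in WT libraries. Its difference with IL-4 did not pass the test (log2 fold change -1.51 ± 1.40, adjusted p = 0.52). Without both KO libraries numbered 2, 1596 genes were called, and without WT IL-4 library 1 there were 1658. Levels below are in CPM, read counts scaled to the library's total as adjusted by edgeR's TMM factor. They are given for libraries 1, 2 and 3 in order. The ± after a log2 fold change (KO over WT) is its standard error from the fit, with 3 libraries per group.

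**Figure D1:**
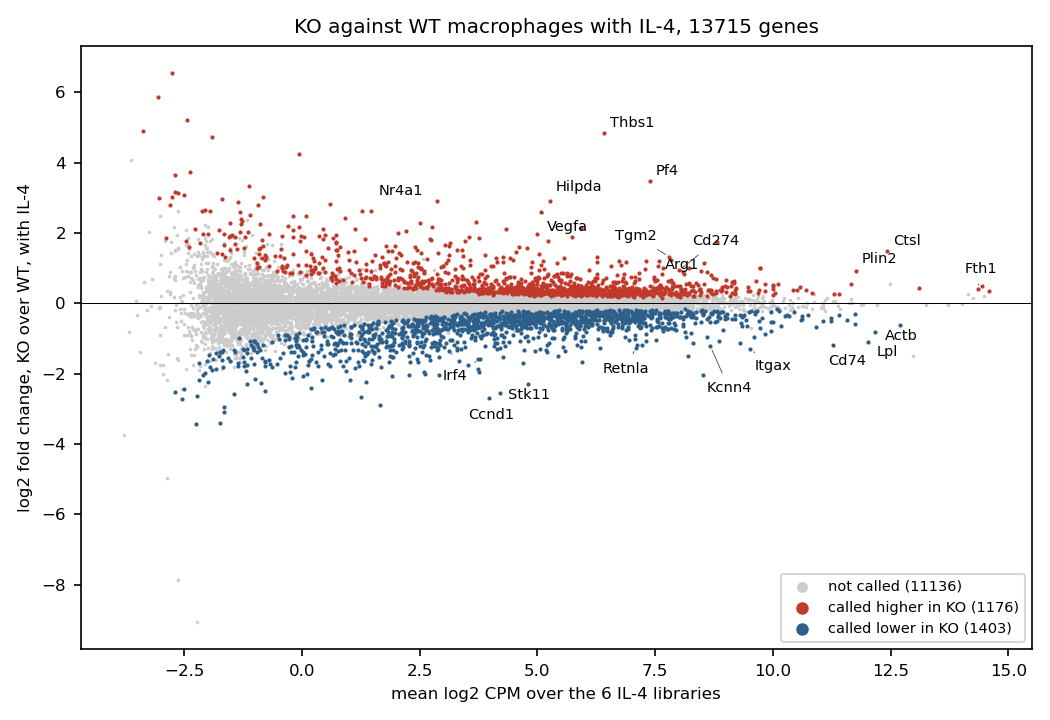
Log2 fold change of KO over WT with IL-4 (vertical axis) against the mean log2 CPM of the 6 IL-4 libraries (horizontal axis) for all 13715 genes, with called genes in red (1176 higher) and blue (1403 lower). Thbs1, Pf4, Hilpda and Vegfa lie highest among called genes right of 3 on that axis, and Ccnd1 and Stk11 lowest among those marked.

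The deleted gene was itself lower. Stk11 (chr10:80115803-80130682, plus strand, mm10) stood at 8.31, 5.56 and 9.24 CPM in KO libraries, against 42.5, 54.4 and 38.7 CPM in WT libraries (log2 fold change -2.55 ± 0.24, adjusted p = 9.0e-06). Every KO library lay under every WT library, and transcript remained in all 3.

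Among called genes with a mean log2 CPM of at least 3 over the IL-4 libraries, the largest increases in KO were those of Thbs1, Pf4, Hilpda, Vegfa and Dusp5. Of the 15 largest, 5 were neutrophil markers, described with the cell type markers. Thbs1 (chr2:118111876-118127133, plus strand) encodes thrombospondin-1, a matrix glycoprotein that limits blood vessel growth and activates TGF-β. It stood at 391, 594 and 411 CPM in KO libraries, against 17.98, 11.5 and 19.5 CPM in WT libraries (log2 fold change 4.83 ± 0.26, adjusted p = 6.1e-08), a 28.5-fold difference. KO library 2 was the highest and the WT libraries were all far below the KO range. Vegfa (chr17:46016993-46032369, minus strand), the vascular growth factor, had 87.7, 91.6 and 68.7 CPM in KO libraries, against 15.2, 12.9 and 13.02 CPM in WT libraries (log2 fold change 2.59 ± 0.15, adjusted p = 1.1e-07). Its receptor gene Flt1 went the other way, with 14.7, 11.2 and 17.8 CPM in KO libraries, against 52.3, 46.7 and 41.7 CPM in WT libraries (log2 fold change -1.69 ± 0.17, adjusted p = 1.5e-05). Neither gene's groups overlapped. Slc40a1, which encodes ferroportin, the cell's iron exporter, had 67.4, 79.1 and 62.6 CPM in KO libraries, against 22.1, 16.5 and 23.2 CPM in WT libraries (log2 fold change 1.76 ± 0.12, adjusted p = 5.9e-07). Ms4a4a, a membrane protein of macrophages, had 859, 852 and 763 CPM in KO libraries, against 241, 229 and 267 CPM in WT libraries (log2 fold change 1.75 ± 0.10, adjusted p = 8.0e-08). Dusp5, a nuclear phosphatase of the MAP kinase ERK, had 27.02, 34.9 and 25.6 CPM in KO libraries, against 5.34, 6.99 and 5.25 CPM in WT libraries (log2 fold change 2.31 ± 0.16, adjusted p = 9.0e-07). For each of these apart from Flt1 the lowest KO library was above the highest WT library, and groups did not overlap, in either direction, for 35.9% of all genes.

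At the same minimum level, the decreases included a cyclin, a potassium channel and signalling genes. Ccnd1, which encodes cyclin D1, the cyclin that carries growth factor signals into the cell cycle, had 6.82, 4.27 and 8.08 CPM in KO libraries, against 36.1, 54.8 and 32.3 CPM in WT libraries (log2 fold change -2.68 ± 0.37, adjusted p = 0.00019). Efr3b, whose protein anchors a phosphatidylinositol 4-kinase at the plasma membrane, had 9.49, 12.7 and 16.2 CPM in KO libraries, against 79.6, 50.97 and 59.1 CPM in WT libraries (log2 fold change -2.30 ± 0.24, adjusted p = 2.2e-05). Kcnj2, the inward rectifier potassium channel Kir2.1, had 5.86, 7.15 and 7.94 CPM in KO libraries, against 31.1, 19.03 and 30.5 CPM in WT libraries (log2 fold change -1.94 ± 0.20, adjusted p = 2.2e-05). In each, the KO libraries stayed under the WT range. Mamdc2 had 35.3, 25.7 and 44.6 CPM in KO libraries, against 126, 99.4 and 113 CPM in WT libraries (log2 fold change -1.68 ± 0.16, adjusted p = 1.1e-05). Fcrls, an Fc receptor-like protein of macrophages and microglia, had 177, 123 and 232 CPM in KO libraries, against 534, 454 and 521 CPM in WT libraries (log2 fold change -1.50 ± 0.21, adjusted p = 0.00017). Chn2, a Rac-inactivating protein, and Rab11fip4, an effector of the recycling GTPase Rab11, were lower, at log2 fold changes of -1.64 ± 0.16 and -1.86 ± 0.12, and Tmem176a and Tmem176b, which encode a pair of related membrane proteins, at -1.53 ± 0.20 and -1.40 ± 0.19.

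The largest differences in CPM were in abundant genes with modest folds. Those higher in KO included lysosomal, iron-storage and lipid droplet genes. Ctsl, the lysosomal protease cathepsin L, had 9099, 9345 and 9154 CPM in KO libraries, against 2556, 3626 and 3674 CPM in WT libraries (log2 fold change 1.49 ± 0.13, adjusted p = 4.3e-06). Plin2, the main coat protein of lipid droplets, had 4909.6, 4836 and 4497 CPM in KO libraries, against 2197, 2595 and 2802 CPM in WT libraries (log2 fold change 0.91 ± 0.10, adjusted p = 3.5e-05). Hmox1, the heme-degrading enzyme, had 1203, 1334 and 1063 CPM in KO libraries, against 593, 614 and 579 CPM in WT libraries (log2 fold change 1.01 ± 0.087, adjusted p = 4.5e-06). Fth1 (ferritin heavy chain), Ctsd (cathepsin D), Gpnmb and Cd36 (a fatty acid and lipoprotein receptor) were higher by log2 fold changes of 0.40 ± 0.10, 0.50 ± 0.079, 0.34 ± 0.069 and 0.54 ± 0.10. On the other side, Cd74, the MHC class II chaperone, had 1691, 1915 and 1382 CPM in KO libraries, against 4290.3, 4072 and 2888 CPM in WT libraries (log2 fold change -1.17 ± 0.23, adjusted p = 0.0028). Lpl, the enzyme that frees fatty acids from lipoproteins, had 2599.6, 2573 and 3379 CPM in KO libraries, against 6130.5, 6171 and 5934 CPM in WT libraries (log2 fold change -1.09 ± 0.11, adjusted p = 1.8e-05). Actb, cytoplasmic β-actin, had 3442, 3466 and 3550.1 CPM in KO libraries, against 5326, 7504 and 5561 CPM in WT libraries (log2 fold change -0.81 ± 0.16, adjusted p = 0.0027). For all 3 the KO values were under the WT values, and C1qb, Anxa1 and Ucp2 were lower, at -0.51 ± 0.12, -0.48 ± 0.070 and -0.32 ± 0.071 on the log2 scale.

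**Figure D2:**
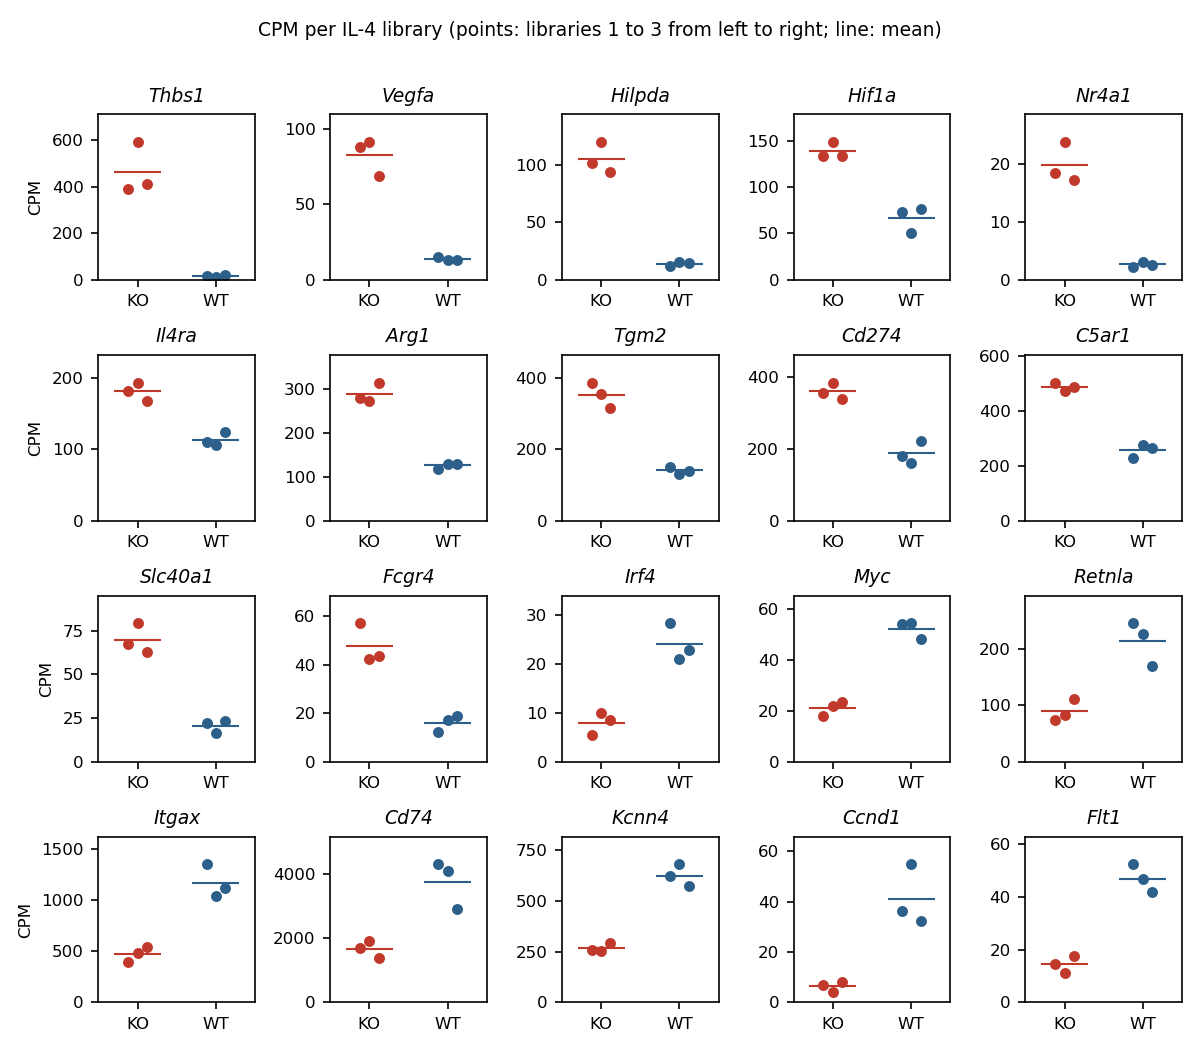
CPM (vertical axes, from 0) of 20 genes in the 3 KO and 3 WT libraries with IL-4, 1 point per library and a line at the mean. The first 12 genes, Thbs1 to Fcgr4, are higher in KO and the last 8, Irf4 to Flt1, lower, and in no panel do the KO and WT points overlap.

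Of the 3 IL-4 receptor chains 1 was higher and 1 lower, while the kinases and STATs downstream were not called. Il4ra, the chain that binds IL-4, had 182, 194 and 167 CPM in KO libraries, against 109.9, 106 and 124 CPM in WT libraries (log2 fold change 0.68 ± 0.10, adjusted p = 0.00024), so that each KO library was above each WT library. Il2rg, the common gamma chain that pairs with it, had 101, 97.5 and 92.6 CPM in KO libraries, against 137, 135 and 126 CPM in WT libraries (log2 fold change -0.45 ± 0.091, adjusted p = 0.0032) and was lower in KO without overlap. Il13ra1, the partner chain of the type II receptor, did not pass the test (log2 fold change 0.23 ± 0.12, adjusted p = 0.19). Of the 8 kinases, adaptors and STATs, 0 were called higher and 0 lower by edgeR, 1 was called by DESeq2 and 2 had an unadjusted p under 0.05 (higher 0 to 1 and lower 0 to 2 with 1 library left out), and Stat6 itself stood at 371, 407 and 387 CPM in KO libraries, against 388, 347 and 411 CPM in WT libraries, with overlapping groups. Of 7 feedback inhibitors only Ptpn6, the phosphatase SHP-1, was called, lower at -0.20 ± 0.059 on the log2 scale, and it was not called in 4 of the 12 fits that leave out 1 library, with adjusted p up to 0.11 (without KO IL-4 library 3).

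Transcription factors that act in the IL-4 response were mostly lower. Of 11 measured, 1 was higher and 6 were lower, with a median log2 fold change of -0.25, against -0.0081 over all genes. Irf4, a factor needed for much of the alternative programme in mice, had 5.52, 9.995 and 8.48 CPM in KO libraries, against 28.4, 21.1 and 22.8 CPM in WT libraries (log2 fold change -1.59 ± 0.19, adjusted p = 6.2e-05). Myc, a growth-promoting factor that IL-4 induces in human macrophages, had 17.9, 21.9 and 23.5 CPM in KO libraries, against 54.1, 54.2 and 48.2 CPM in WT libraries (log2 fold change -1.30 ± 0.13, adjusted p = 2.2e-05). Batf3, an AP-1 family factor best known from dendritic cells, had 15.2, 13.03 and 15.2 CPM in KO libraries, against 30.3, 37.1 and 25.6 CPM in WT libraries (log2 fold change -1.10 ± 0.14, adjusted p = 9.1e-05). Each WT library was above each KO library for all 3. Klf4 and Ppargc1b, which encodes the coactivator PGC-1β, were lower, at -0.71 ± 0.17 and -0.67 ± 0.10 on the log2 scale. Atf3 was lower, at -0.25 ± 0.057, with adjusted p = 0.057 without KO IL-4 library 1. The 1 that was higher was Cebpb, a factor that drives Arg1 transcription, with 459, 474 and 418 CPM in KO libraries, against 275, 369 and 282 CPM in WT libraries (log2 fold change 0.55 ± 0.10, adjusted p = 0.0016).

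Products of alternative activation split in both directions. Of 44 measured, 8 were higher and 12 lower, with a median log2 fold change of 0.014. Tgm2, a transglutaminase that crosslinks proteins and a marker of human and mouse alternative macrophages, had 388, 355 and 315 CPM in KO libraries, against 151, 132 and 139 CPM in WT libraries (log2 fold change 1.32 ± 0.10, adjusted p = 1.8e-06). Clec4a1, a C-type lectin, had 47.7, 49.2 and 47.3 CPM in KO libraries, against 28.1, 28.2 and 28.6 CPM in WT libraries (log2 fold change 0.77 ± 0.10, adjusted p = 1.0e-04). Ear2, a secreted ribonuclease, had 24.7, 23.7 and 29.05 CPM in KO libraries, against 15.7, 18.3 and 13.3 CPM in WT libraries (log2 fold change 0.71 ± 0.13, adjusted p = 0.0015). All 3 were above the WT range in each KO library, as was Arg1 with 279, 272 and 315 CPM in KO libraries, against 118, 129.8 and 129 CPM in WT libraries. Retnla, which encodes RELMα, had 73.2, 82.6 and 112 CPM in KO libraries, against 246, 227 and 169 CPM in WT libraries (log2 fold change -1.26 ± 0.15, adjusted p = 6.2e-05), the reverse order. Clec7a, the fungal sensor dectin-1, and Atp6v0d2, a proton pump subunit, were higher by 0.37 ± 0.084 and 0.39 ± 0.069 on the log2 scale.

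The lower members of that list included surface and fusion proteins. Itgax, which encodes the integrin CD11c, had 395, 481 and 537 CPM in KO libraries, against 1347, 1034 and 1120.2 CPM in WT libraries (log2 fold change -1.31 ± 0.15, adjusted p = 5.2e-05), with no KO library above any WT library. Ocstamp, needed for macrophage fusion into multinucleated cells, had 33.8, 79.5 and 55.3 CPM in KO libraries, against 131, 114 and 97.05 CPM in WT libraries (log2 fold change -1.02 ± 0.21, adjusted p = 0.0038). Il27ra, the IL-27 receptor, had 7.94, 8.68 and 9.75 CPM in KO libraries, against 21.05, 17.3 and 16.6 CPM in WT libraries (log2 fold change -1.06 ± 0.13, adjusted p = 6.8e-05). Tgfbi, a matrix protein, Vwf and the kinase Matk were lower, at -0.96 ± 0.13, -0.82 ± 0.11 and -0.57 ± 0.082 on the log2 scale. Of the 14 lectins and surface receptors 6 were lower (3 to 7 with 1 library left out, over 1.5 times away without KO IL-4 library 1 or WT IL-4 library 1), and of the 6 chemokines of the list 0 were called by edgeR and 0 by DESeq2, with 2 at an unadjusted p under 0.05 (higher 0 to 1 and lower 0 to 1 with 1 library left out). Chil3 and Mrc1, a chitinase-like protein and the mannose receptor, did not pass the test (0.54 ± 0.24 and 0.13 ± 0.16).

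Genes of T cell contact were split between ligands of costimulation and antigen presentation. Of 11 PD-1 ligands and costimulatory genes, 5 were higher and 2 lower, with a median of 0.36 on the log2 scale. Cd274, which encodes PD-L1, had 356, 384 and 339 CPM in KO libraries, against 181, 160.0 and 223 CPM in WT libraries (log2 fold change 0.94 ± 0.12, adjusted p = 9.1e-05). Pdcd1lg2, which encodes PD-L2, had 34.2, 33.9 and 33.7 CPM in KO libraries, against 23.3, 24.6 and 22.3 CPM in WT libraries (log2 fold change 0.53 ± 0.11, adjusted p = 0.0040). Cd86 had 12.998, 11.8 and 12.3 CPM in KO libraries, against 3.37, 3.38 and 3.96 CPM in WT libraries (log2 fold change 1.79 ± 0.13, adjusted p = 9.0e-07). Cd80 had 8.003, 8.22 and 6.57 CPM in KO libraries, against 2.89, 3.64 and 3.75 CPM in WT libraries (log2 fold change 1.15 ± 0.14, adjusted p = 8.8e-05), and both bind CD28 and CTLA-4 on T cells. In these 4 genes each KO library exceeded each WT library. Cd40, the receptor through which T cells activate macrophages, had 4.28, 3.09 and 4.22 CPM in KO libraries, against 10.4, 8.17 and 8.72 CPM in WT libraries (log2 fold change -1.24 ± 0.20, adjusted p = 0.00060). Cd276, which encodes B7-H3, had 23.3, 29.6 and 34.2 CPM in KO libraries, against 57.4, 57.9 and 58.96 CPM in WT libraries (log2 fold change -0.999 ± 0.13, adjusted p = 0.00012). Both were lower in KO without overlap. Of 13 MHC class II genes 8 were lower, among them Ciita, their master coactivator (log2 fold change -1.33 ± 0.15, adjusted p = 5.1e-05).

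**Figure D3:**
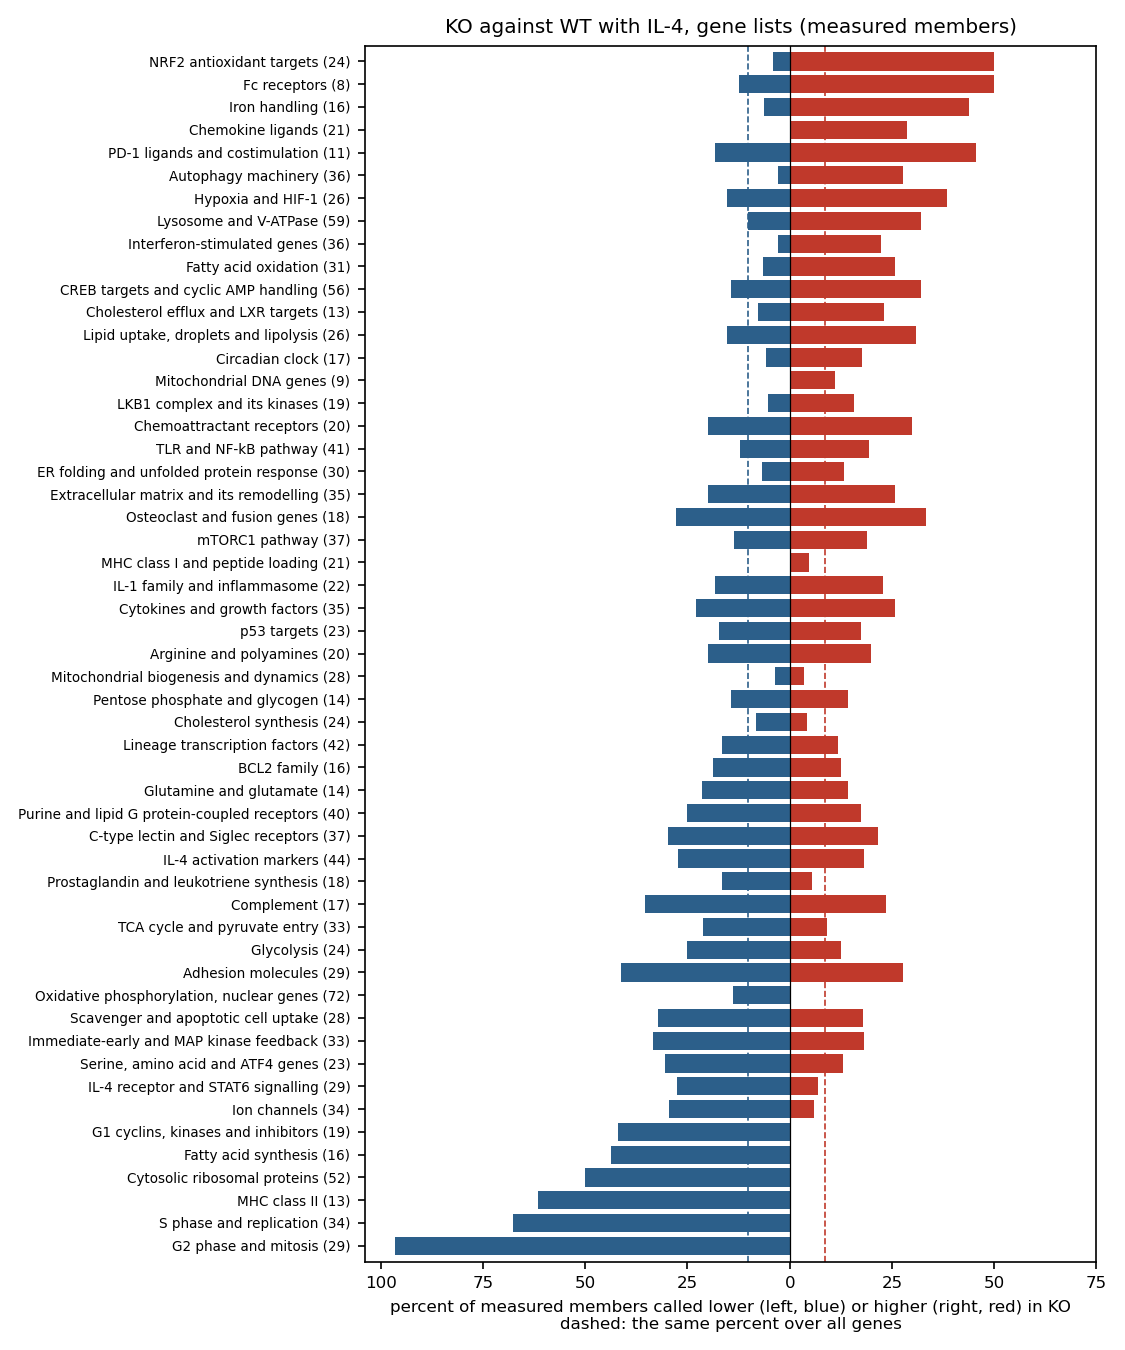
Share of measured members called higher (red, right) or lower (blue, left) in KO with IL-4 in each gene list with at least 8 measured members, cell type marker lists left out, in percent, with the number of measured members in brackets and the shares over all genes (8.57% higher, 10.2% lower) dashed. Division and MHC class II genes are lower with no member higher, and the NRF2 target, Fc receptor and PD-1 ligand lists have the largest shares of higher members among the lists drawn.

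Chemokines were higher or not called. Of 21 chemokines, 6 were higher and 0 lower (lower 0 to 2 with 1 library left out), and 5 of those higher were of the CXC family. Pf4, which encodes the platelet chemokine CXCL4, had 599.6, 569.9 and 512 CPM in KO libraries, against 40.7, 63.2 and 47.6 CPM in WT libraries (log2 fold change 3.47 ± 0.16, adjusted p = 1.8e-08). Cxcl2, which attracts neutrophils, had 1.64, 1.78 and 1.9996 CPM in KO libraries, against 0.274, 0.536 and 0.645 CPM in WT libraries (log2 fold change 1.91 ± 0.33, adjusted p = 0.00098) at a low level, and Cxcl1, a close relative, was also higher (log2 fold change 2.64 ± 0.57, adjusted p = 0.0047). Ccl6, the 1 called of the 13 CC chemokines, had 667, 514 and 481 CPM in KO libraries, against 231, 269.6 and 253 CPM in WT libraries (log2 fold change 1.14 ± 0.17, adjusted p = 0.00028), above the WT range in each KO library. Among markers of other blood cells, the neutrophil and the megakaryocyte and erythroid sums were also higher in KO. The T and B cell and dendritic cell sums were lower, though only 1 member of each list was called lower, as given with the cell type markers. The summed CPM of 15 neutrophil markers ran from 593 to 1086 in KO and from 322 to 452 in WT libraries. Of 5 megakaryocyte and erythroid markers measured, Pf4 itself made up nearly the whole sum, and the other 4 together came to 1.51 to 2.77 CPM in KO and 0.599 to 0.921 CPM in WT libraries. Their part in the chemokine differences was not tested, and in bulk RNA fewer or more cells of a type and less or more RNA per cell cannot be told apart.

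Among cytokines and growth factors, 9 of 35 were higher and 8 lower. Nrg1, neuregulin-1, a ligand of ERBB receptors, had 5.37, 7.23 and 5.40 CPM in KO libraries, against 0.973, 1.29 and 0.645 CPM in WT libraries (log2 fold change 2.62 ± 0.27, adjusted p = 1.9e-05). Osm, oncostatin M, an IL-6 family cytokine, had 17.9, 19.9 and 15.5 CPM in KO libraries, against 5.54, 7.34 and 5.68 CPM in WT libraries (log2 fold change 1.52 ± 0.13, adjusted p = 3.9e-06). Pdgfc, a platelet-derived growth factor, had 8.53, 8.79 and 10.3 CPM in KO libraries, against 2.94, 2.28 and 3.96 CPM in WT libraries (log2 fold change 1.599 ± 0.17, adjusted p = 3.0e-05). The KO libraries were above the WT libraries in each. Pdgfb, of the same growth factor family, went down, with 19.2, 19.3 and 19.5 CPM in KO libraries, against 53.6, 55.4 and 39.8 CPM in WT libraries (log2 fold change -1.36 ± 0.14, adjusted p = 1.5e-05). Tnf had 3.07, 3.01 and 3.38 CPM in KO libraries, against 5.16, 6.003 and 5.83 CPM in WT libraries (log2 fold change -0.84 ± 0.12, adjusted p = 0.00027). Tnfsf13b, which encodes the B cell survival factor BAFF, had 1.46, 1.10 and 1.73 CPM in KO libraries, against 3.19, 2.71 and 2.64 CPM in WT libraries (log2 fold change -0.996 ± 0.22, adjusted p = 0.0058). Il1a and Il16 were higher by 1.91 ± 0.34 and 0.82 ± 0.12 on the log2 scale, and Fgf13 and Tnfsf8 were lower, at -2.04 ± 0.19 and -2.94 ± 0.60. Il1rl1, which encodes the IL-33 receptor ST2, had 0.248, 0.356 and 0.486 CPM in KO libraries, against 1.80, 0.992 and 1.63 CPM in WT libraries (log2 fold change -1.995 ± 0.46, adjusted p = 0.0075), so WT cultures carried more of its transcript.

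Matrix and adhesion genes moved both ways. Of 35 matrix genes, 9 were higher and 7 lower (lower 4 to 8 with 1 library left out, over 1.5 times away without WT IL-4 library 1). Mmp14 and Mmp19, matrix metalloproteinases, were higher by 0.65 ± 0.062 and 1.32 ± 0.14 on the log2 scale, whereas Plau, the urokinase plasminogen activator, had 1.52, 1.89 and 2.54 CPM in KO libraries, against 6.31, 6.38 and 6.54 CPM in WT libraries (log2 fold change -1.68 ± 0.16, adjusted p = 1.0e-05). Of 14 integrins, 3 were higher and 7 lower. Itga9, Itga1 and Itgb7 were the higher ones (1.83 ± 0.17, 1.28 ± 0.23 and 1.17 ± 0.16). Itga6, a laminin-binding chain, had 40.4, 36.01 and 50.4 CPM in KO libraries, against 82.996, 61.8 and 83.5 CPM in WT libraries (log2 fold change -0.85 ± 0.14, adjusted p = 0.00084), and Itgal, Itga5 and Itgb2 were lower, at -0.47 ± 0.068, -0.44 ± 0.073 and -0.42 ± 0.083. Among immunoglobulin-type adhesion molecules, Pecam1 had 13.03, 15.9 and 16.997 CPM in KO libraries, against 4.21, 4.58 and 6.08 CPM in WT libraries (log2 fold change 1.63 ± 0.17, adjusted p = 2.4e-05). Vcam1 had 7.38, 9.23 and 6.94 CPM in KO libraries, against 3.77, 3.11 and 3.50 CPM in WT libraries (log2 fold change 1.18 ± 0.23, adjusted p = 0.0022), both above the WT range. Icam1, the ligand of the β2 integrins, had 46.1, 48.4 and 52.6 CPM in KO libraries, against 86.5, 87.7 and 87.2 CPM in WT libraries (log2 fold change -0.83 ± 0.070, adjusted p = 4.3e-06), below it. The tetraspanins Cd9 and Cd81 were lower, at -0.34 ± 0.070 and -0.67 ± 0.093, and Cd47, the signal that spares cells from uptake, was higher by 0.58 ± 0.086.

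Receptors that guide macrophages to attractants moved in both directions. Of 20 measured, 6 were higher and 4 lower (2 to 5 with 1 library left out, over 1.5 times away without KO IL-4 library 2 or WT IL-4 library 1). C5ar1, the receptor of complement fragment C5a, had 504, 472 and 488 CPM in KO libraries, against 229.7, 277 and 266 CPM in WT libraries (log2 fold change 0.92 ± 0.076, adjusted p = 3.5e-06). Ccr1, a receptor of CC chemokines, had 185, 206 and 189 CPM in KO libraries, against 103, 106 and 112 CPM in WT libraries (log2 fold change 0.86 ± 0.11, adjusted p = 9.1e-05). Cxcr4, the receptor of CXCL12, had 65.98, 60.3 and 63.4 CPM in KO libraries, against 30.1, 38.3 and 36.6 CPM in WT libraries (log2 fold change 0.85 ± 0.094, adjusted p = 3.5e-05). In all 3 the KO libraries were above the WT ones. Cx3cr1, the fractalkine receptor, was low in both genotypes, at 1.15, 0.383 and 1.41 CPM in KO libraries, against 6.63, 4.64 and 7.34 CPM in WT libraries (log2 fold change -2.66 ± 0.33, adjusted p = 7.9e-05). Ccr2 was lower, at -1.08 ± 0.26 on the log2 scale, with adjusted p = 0.066 without WT IL-4 library 1.

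Receptors for antibody were more often higher than lower. Of 8 Fc receptor genes, 4 were higher and 1 lower. Fcgr4, an activating IgG receptor, had 57.1, 42.4 and 43.6 CPM in KO libraries, against 12.3, 17.1 and 18.8 CPM in WT libraries (log2 fold change 1.57 ± 0.16, adjusted p = 2.2e-05). Fcgrt, the neonatal receptor that recycles IgG, had 144, 136 and 136 CPM in KO libraries, against 77.8, 99.8 and 90.1 CPM in WT libraries (log2 fold change 0.63 ± 0.091, adjusted p = 0.00025). Fcgr3, another activating receptor, had 1334, 1199 and 1146 CPM in KO libraries, against 792, 839 and 998 CPM in WT libraries (log2 fold change 0.48 ± 0.10, adjusted p = 0.0037). Fcgr2b, the inhibitory receptor, had 488, 452 and 464 CPM in KO libraries, against 339.6, 365 and 383 CPM in WT libraries (log2 fold change 0.37 ± 0.075, adjusted p = 0.0032). In each of the 4 the KO values lay above the WT values. Fcgr1 and Fcer1g, the high-affinity receptor and the shared signalling chain, did not pass the test (-0.037 ± 0.10 and -0.16 ± 0.10).

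Other pattern and uptake receptors were mixed. Of 21 Toll-like receptor sensors and adaptors 6 were higher and 0 lower (lower 0 to 2 with 1 library left out), among them Cd14, the lipopolysaccharide co-receptor, with 51.8, 63.9 and 42.9 CPM in KO libraries, against 25.6, 24.04 and 19.2 CPM in WT libraries (log2 fold change 1.20 ± 0.14, adjusted p = 6.2e-05). Tlr2, a lipoprotein sensor, had 25.7, 28.3 and 24.4 CPM in KO libraries, against 15.4, 12.9 and 15.2 CPM in WT libraries (log2 fold change 0.85 ± 0.10, adjusted p = 7.7e-05). Neutrophil markers, summed beside the chemokines, were higher in the same libraries, and their part in these receptor differences was not tested. Of 37 C-type lectins, Siglecs and paired receptors, 8 were higher and 11 lower (lower 6 to 11 with 1 library left out, over 1.5 times away without KO IL-4 library 1 or WT IL-4 library 1). Clec4d, an activating lectin, had 164, 167 and 146 CPM in KO libraries, against 67.96, 86.03 and 72.3 CPM in WT libraries (log2 fold change 1.08 ± 0.11, adjusted p = 2.1e-05). Clec12a, an inhibitory lectin that senses dead cells, had 58.7, 38.4 and 59.7 CPM in KO libraries, against 128, 119 and 127 CPM in WT libraries (log2 fold change -1.26 ± 0.15, adjusted p = 5.0e-05). The first was above and the second below the WT range in each KO library. The Siglec gene Siglecf was lower, at -0.97 ± 0.11 on the log2 scale. Of 28 scavenger and dead-cell uptake genes, 5 were higher and 9 lower. Mertk and Axl, related receptor kinases that recognise dying cells through bridging proteins, went opposite ways. Mertk had 160.0, 169.6 and 182 CPM in KO libraries, against 103, 89.9 and 135 CPM in WT libraries (log2 fold change 0.65 ± 0.13, adjusted p = 0.0030). Axl had 119, 155 and 120.5 CPM in KO libraries, against 277, 187 and 207 CPM in WT libraries (log2 fold change -0.77 ± 0.16, adjusted p = 0.0046). The bridging protein gene Pros1 and the Rac activator gene Dock2 were lower, at -0.61 ± 0.10 and -0.97 ± 0.15.

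Complement genes were also divided, with 4 of 17 higher and 6 lower. Cfp, which encodes properdin, the stabiliser of the alternative pathway, had 361, 564 and 363 CPM in KO libraries, against 238, 197 and 202 CPM in WT libraries (log2 fold change 1.02 ± 0.17, adjusted p = 0.00085). C1qa, C1qb and C1qc, the chains of the classical pathway's recognition protein, were lower together, at -0.86 ± 0.16, -0.51 ± 0.12 and -0.48 ± 0.11 on the log2 scale. C1qa stood at 264, 179.6 and 246 CPM in KO libraries, against 453, 438 and 359 CPM in WT libraries, with no overlap.

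Genes that CREB switches on were more often higher than lower in KO. Of 19 CREB targets, 9 were higher and 2 lower, with a median of 0.39 on the log2 scale. Nr4a1, an orphan nuclear receptor and a classic CREB target, had 18.4, 23.9 and 17.2 CPM in KO libraries, against 2.19, 3.14 and 2.61 CPM in WT libraries (log2 fold change 2.91 ± 0.14, adjusted p = 3.3e-08). Crem, which encodes a CREB-family factor whose inducible form represses the same genes, had 23.8, 23.9 and 22.3 CPM in KO libraries, against 11.5, 10.3 and 12.1 CPM in WT libraries (log2 fold change 1.05 ± 0.11, adjusted p = 3.4e-05). Fos had 131, 155 and 146 CPM in KO libraries, against 96.1, 106 and 88.9 CPM in WT libraries (log2 fold change 0.57 ± 0.080, adjusted p = 0.00021). Dusp1, a phosphatase of p38 and JNK, had 50.9, 55.7 and 51.1 CPM in KO libraries, against 34.7, 43.01 and 34.9 CPM in WT libraries (log2 fold change 0.49 ± 0.10, adjusted p = 0.0028). All 4 were above the WT range in every KO library. Of 11 cyclases and phosphodiesterases, which make and break down cyclic AMP, 4 were higher and 2 lower (lower 1 to 2 with 1 library left out, over 1.5 times away without KO IL-4 libraries 1, 2 and 3, WT IL-4 libraries 1 and 3, KO mock library 3 or WT mock libraries 1 and 3). The phosphodiesterase genes Pde4b, Pde3b and Pde7b were higher by 1.16 ± 0.10, 1.22 ± 0.14 and 1.16 ± 0.13, and Pde4b stood at 41.8, 46.8 and 43.3 CPM in KO libraries, against 17.98, 20.2 and 20.9 CPM in WT libraries. Ptger4, the Gs-coupled receptor of prostaglandin E2, had 10.4, 8.90 and 10.4 CPM in KO libraries, against 21.97, 18.4 and 18.7 CPM in WT libraries (log2 fold change -0.99 ± 0.11, adjusted p = 5.0e-05), which put KO under WT. Over the whole list of 56 genes, 18 were higher and 8 lower (lower 4 to 10 with 1 library left out, over 1.5 times away without KO IL-4 libraries 1, 2 and 3 or WT IL-4 library 1).

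Promoters of these targets often held the letters that CREB recognises. The short site TGACG, searched on both strands, was found in 7 of the 11 RefSeq promoters (63.6%) of the 8 called-higher targets that had one, against 20.8% of all 32851 promoters of the same 300 bases, which run from 250 before to 50 after the start of a gene. The full site TGACGTCA, which contains the short site, was in 1 of the 11 (9.09%), against 1.79% of all. A match is a description of the letters and not a measured site. The list was made of known CREB targets, and its members that were not called were not compared. These shares thus do not bear on the KO difference. The promoters of Nr4a1 and Fos are shown because these genes were among the clearest higher targets and held several matches, written 5′ to 3′ on the gene's strand in build GRCm38.p6 with the short site in capitals (CGTCA where it lies on the other strand).
Nr4a1 (chr15:101266596-101266895, plus strand): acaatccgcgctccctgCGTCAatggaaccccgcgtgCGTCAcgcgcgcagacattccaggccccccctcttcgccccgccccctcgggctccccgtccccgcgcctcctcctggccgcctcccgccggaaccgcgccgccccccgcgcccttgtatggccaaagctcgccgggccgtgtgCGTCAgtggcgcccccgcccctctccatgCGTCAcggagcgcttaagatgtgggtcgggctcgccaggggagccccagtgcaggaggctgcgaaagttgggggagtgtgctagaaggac
Fos (chr12:85473640-85473939, plus strand): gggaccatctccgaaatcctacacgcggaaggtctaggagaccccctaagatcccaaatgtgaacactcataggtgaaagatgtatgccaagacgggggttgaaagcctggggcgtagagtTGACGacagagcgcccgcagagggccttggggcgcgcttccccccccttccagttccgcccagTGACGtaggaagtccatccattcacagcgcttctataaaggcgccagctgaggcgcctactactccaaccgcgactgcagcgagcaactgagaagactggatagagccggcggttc

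Immediate-early and MAP kinase feedback genes moved in both directions. Of 33 measured, 6 were higher and 11 lower (lower 7 to 11 with 1 library left out, over 1.5 times away without KO IL-4 library 1). Jun, the partner of Fos in AP-1, had 173, 149.5 and 173 CPM in KO libraries, against 257, 275 and 266 CPM in WT libraries (log2 fold change -0.69 ± 0.074, adjusted p = 2.9e-05), with every KO library lower. Dusp6, the cytoplasmic ERK phosphatase, had 22.9, 22.3 and 28.9 CPM in KO libraries, against 40.3, 46.5 and 42.7 CPM in WT libraries (log2 fold change -0.81 ± 0.10, adjusted p = 8.4e-05). Dusp4 and Dusp7, other MAP kinase phosphatases, and Spred1 and Spred2, which block the RAS pathway, were lower, at -0.65 ± 0.12, -0.55 ± 0.089, -0.70 ± 0.15 and -1.005 ± 0.18 on the log2 scale. All these genes were thus lower while Dusp5, above, was higher.

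Of 18 targets of the hypoxia factor HIF-1, 8 were higher in KO, with a median of 0.22 on the log2 scale. Hif1a, the oxygen-controlled subunit, had 134, 149 and 133 CPM in KO libraries, against 72.7, 50.4 and 75.98 CPM in WT libraries (log2 fold change 1.06 ± 0.12, adjusted p = 5.3e-05). Egln3, which encodes a prolyl hydroxylase that marks HIF for destruction, had 3.07, 3.56 and 3.11 CPM in KO libraries, against 1.596, 1.13 and 0.768 CPM in WT libraries (log2 fold change 1.46 ± 0.21, adjusted p = 0.00025). Hilpda, a droplet protein that restrains lipolysis, had 102, 120.5 and 93.7 CPM in KO libraries, against 12.3, 15.2 and 14.8 CPM in WT libraries (log2 fold change 2.90 ± 0.11, adjusted p = 3.5e-09). P4ha2, a collagen prolyl hydroxylase, had 13.5, 13.1 and 12.5 CPM in KO libraries, against 5.16, 5.25 and 6.36 CPM in WT libraries (log2 fold change 1.22 ± 0.15, adjusted p = 8.0e-05). Ddit4, an inhibitor of mTORC1, had 1.74, 2.19 and 1.73 CPM in KO libraries, against 0.449, 0.348 and 0.461 CPM in WT libraries (log2 fold change 2.16 ± 0.44, adjusted p = 0.0031). Mxi1, which opposes MYC, had 64.5, 66.7 and 63.6 CPM in KO libraries, against 35.6, 36.7 and 40.8 CPM in WT libraries (log2 fold change 0.78 ± 0.068, adjusted p = 4.6e-06). No KO library of these 6 genes fell within the WT range. Vhl, the ligase subunit that removes HIF, was lower, at -0.30 ± 0.062. Of the targets, 3 were lower (1 to 3 with 1 library left out, over 1.5 times away without KO IL-4 library 1 or WT IL-4 library 1).

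The core letters ACGTG of a hypoxia response element were in 7 of 10 promoters (70.0%) of the 6 called-higher hypoxia targets with one, against 19.6% of all promoters, both strands searched. This core can overlap the CREB letters TGACG, as in TGACGTG. Listed hypoxia targets that were not called were not compared, so this share does not bear on the KO difference. P4ha2 is shown as an example with 2 matches, in capitals.
P4ha2 (chr11:54100674-54100973, plus strand): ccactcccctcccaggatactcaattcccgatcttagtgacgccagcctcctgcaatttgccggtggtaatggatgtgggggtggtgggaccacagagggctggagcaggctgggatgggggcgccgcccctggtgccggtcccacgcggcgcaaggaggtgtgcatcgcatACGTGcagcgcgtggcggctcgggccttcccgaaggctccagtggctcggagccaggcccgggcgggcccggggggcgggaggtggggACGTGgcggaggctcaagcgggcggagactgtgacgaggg

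Glycolysis did not move as a block with HIF-1 targets. Of 24 genes, 3 were higher and 6 lower. Ldha, which makes lactate, had 1744, 1939 and 1696 CPM in KO libraries, against 1273, 1353 and 1292 CPM in WT libraries (log2 fold change 0.46 ± 0.064, adjusted p = 0.00020). Hk2, the first enzyme, had 29.1, 32.3 and 30.02 CPM in KO libraries, against 54.4, 43.4 and 43.4 CPM in WT libraries (log2 fold change -0.63 ± 0.10, adjusted p = 0.00064). Slc2a6, a hexose transporter of lysosomes, had 34.1, 50.5 and 41.9 CPM in KO libraries, against 95.3, 96.7 and 75.3 CPM in WT libraries (log2 fold change -1.08 ± 0.16, adjusted p = 0.00034). Pfkl, the liver-type phosphofructokinase, was higher by 0.38 ± 0.079 and Pfkp, the platelet type, lower, at -0.35 ± 0.067 on the log2 scale. Both directions were thus found within the same pathway step.

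Among called genes, those of fatty acid synthesis were lower and those of lipid droplets higher with 1 exception. Of 16 fatty acid synthesis genes 0 were higher and 7 lower, with a median of -0.33 on the log2 scale. Fasn, fatty acid synthase, had 32.1, 41.1 and 36.6 CPM in KO libraries, against 79.4, 58.6 and 59.7 CPM in WT libraries (log2 fold change -0.85 ± 0.18, adjusted p = 0.0046). Scd2, a desaturase, had 84.3, 102 and 111 CPM in KO libraries, against 207, 154 and 192 CPM in WT libraries (log2 fold change -0.90 ± 0.15, adjusted p = 0.00099). Both were below the WT range. Of 15 droplet and lipolysis genes, 6 were higher and 1 lower (lower 0 to 1 with 1 library left out), Hilpda and Plin2 among the higher ones. Dgat1, the enzyme that makes triglyceride, had 56.3, 60.5 and 51.3 CPM in KO libraries, against 35.1, 39.9 and 35.8 CPM in WT libraries (log2 fold change 0.60 ± 0.10, adjusted p = 0.00059). Pnpla2, the lipase ATGL that opens droplets, had 312, 304 and 296 CPM in KO libraries, against 202, 254 and 232 CPM in WT libraries (log2 fold change 0.40 ± 0.078, adjusted p = 0.0022), so genes of both making and breaking triglyceride were higher. Of 18 mitochondrial fatty acid oxidation genes 5 were higher and 0 lower, such as the carnitine carrier Slc25a20 (log2 fold change 0.41 ± 0.078, adjusted p = 0.0019) and the dehydrogenase Acadl (log2 fold change 0.34 ± 0.065, adjusted p = 0.0020).

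Both arginase genes were higher, and amino acid carriers moved in both directions. Arg2, the mitochondrial arginase, had 10.1, 10.2 and 7.67 CPM in KO libraries, against 2.24, 2.14 and 2.36 CPM in WT libraries (log2 fold change 2.05 ± 0.17, adjusted p = 4.3e-06), so it was higher together with the cytosolic enzyme gene Arg1 (log2 fold change 1.20 ± 0.12, adjusted p = 1.5e-05). Slc7a1, the cationic amino acid carrier that brings arginine in, had 3.63, 3.64 and 3.78 CPM in KO libraries, against 7.08, 9.62 and 6.94 CPM in WT libraries (log2 fold change -1.10 ± 0.16, adjusted p = 0.00028) and was lower in every KO library. Gamt and Ckb, which make and charge creatine, were lower, at -0.76 ± 0.11 and -0.95 ± 0.11 on the log2 scale. Smox, which oxidises spermine, was higher by 0.73 ± 0.070 and Sms, which makes it, lower, at -0.53 ± 0.084. Over the 20 arginine and polyamine genes 4 were higher and 4 lower. Glul, glutamine synthetase, had 146, 132 and 133 CPM in KO libraries, against 67.2, 88.6 and 78.8 CPM in WT libraries (log2 fold change 0.81 ± 0.10, adjusted p = 6.9e-05). Slc7a11 and Slc3a2, the chains of the cystine carrier, were higher by 0.99 ± 0.20 and 0.47 ± 0.074, whereas Slc7a5 and Slc1a5, carriers of large neutral amino acids and glutamine, were lower, at -0.80 ± 0.16 and -0.72 ± 0.082. Of the 23 serine, amino acid and ATF4 genes 3 were higher and 7 lower (lower 3 to 7 with 1 library left out, over 1.5 times away without KO IL-4 libraries 1 and 3 or WT IL-4 library 1).

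Iron genes were higher in 7 of 16 cases and lower in 1 (higher 4 to 7 with 1 library left out, over 1.5 times away without KO IL-4 library 2 or WT IL-4 library 1). Beyond the exporter Slc40a1, the ferritin gene Fth1 and Hmox1, Slc11a1, the phagosomal metal carrier NRAMP1, had 673, 675 and 604 CPM in KO libraries, against 455, 464 and 472 CPM in WT libraries (log2 fold change 0.49 ± 0.064, adjusted p = 0.00013). Steap3, a ferric reductase of endosomes, was the lower one, with 40.02, 42.3 and 41.99 CPM in KO libraries, against 59.95, 60.5 and 57.8 CPM in WT libraries (log2 fold change -0.52 ± 0.066, adjusted p = 9.4e-05). The groups of both genes were apart.

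Division genes were lower in KO. Of 29 genes of G2 phase and mitosis 28 were lower and none higher, with a median of -1.13 on the log2 scale, and of 34 of S phase 23 were lower. Ccnb1, cyclin B1, had 4.09, 5.31 and 5.03 CPM in KO libraries, against 11.2, 10.2 and 10.3 CPM in WT libraries (log2 fold change -1.13 ± 0.20, adjusted p = 0.0014). Cdc20, an activator of the anaphase-promoting complex, had 3.38, 4.08 and 4.22 CPM in KO libraries, against 8.85, 8.25 and 7.83 CPM in WT libraries (log2 fold change -1.09 ± 0.19, adjusted p = 0.00099). Uhrf1, which keeps DNA methylation through replication, had 6.08, 8.38 and 8.48 CPM in KO libraries, against 24.8, 22.7 and 21.8 CPM in WT libraries (log2 fold change -1.59 ± 0.19, adjusted p = 7.1e-05). In all 3 no KO library reached the WT range. Of 13 G1 cyclins and kinases 5 were lower, Ccnd3 and Ccne2 among them (-0.52 ± 0.088 and -1.06 ± 0.20), and of 6 cell cycle inhibitors 3 were lower too (1 to 3 with 1 library left out, over 1.5 times away without KO IL-4 library 1 or WT IL-4 library 1), among them Cdkn2c (-1.49 ± 0.24). Gadd45a, a p53 target that halts division, had 43.4, 41.6 and 39.9 CPM in KO libraries, against 16.3, 23.6 and 21.7 CPM in WT libraries (log2 fold change 1.02 ± 0.12, adjusted p = 7.3e-05) and was above the WT range. The 23 p53 targets as a list were split, with 4 higher and 4 lower.

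Promoters of the lower mitotic genes often held 2 known elements. CCAAT, the box bound by NF-Y, was in 19 of 23 promoters (82.6%) of the 22 genes with one, against 37.4% of all promoters, and TTTGAA, the cell cycle homology region through which MuvB complexes act, in 16 of 23 (69.6%), against 17.9%. Both strands were searched. The genes were listed for their part in division and compared only with all promoters, so these shares do not bear on the KO difference. Ccnb1 and Cdc20 are shown, with CCAAT in capitals.
Ccnb1 (chr13:100786437-100786736, minus strand): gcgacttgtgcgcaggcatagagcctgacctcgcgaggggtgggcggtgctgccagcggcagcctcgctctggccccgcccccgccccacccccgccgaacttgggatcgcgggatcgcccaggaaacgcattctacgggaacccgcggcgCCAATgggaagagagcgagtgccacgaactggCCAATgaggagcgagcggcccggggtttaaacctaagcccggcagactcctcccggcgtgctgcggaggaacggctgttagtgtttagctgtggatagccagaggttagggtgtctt
Cdc20 (chr4:118437294-118437593, minus strand): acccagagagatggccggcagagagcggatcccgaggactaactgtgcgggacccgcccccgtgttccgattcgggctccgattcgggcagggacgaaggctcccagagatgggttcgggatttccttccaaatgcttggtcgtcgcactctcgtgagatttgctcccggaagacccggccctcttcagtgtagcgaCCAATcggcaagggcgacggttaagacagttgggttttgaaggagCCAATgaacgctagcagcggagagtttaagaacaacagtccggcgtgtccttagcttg

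Survival genes of the BCL2 family were lower in part. Bcl2 had 6.67, 5.48 and 6.73 CPM in KO libraries, against 17.9, 14.7 and 12.6 CPM in WT libraries (log2 fold change -1.26 ± 0.14, adjusted p = 4.2e-05). Bcl2l1, which encodes BCL-XL, had 49.5, 40.6 and 46.96 CPM in KO libraries, against 84.7, 91.6 and 84.6 CPM in WT libraries (log2 fold change -0.93 ± 0.092, adjusted p = 1.5e-05). Both were below the WT range, while Mcl1, another survival gene, was higher by 0.27 ± 0.066 on the log2 scale. Of the death-promoting genes Pmaip1, which encodes NOXA, was higher by 0.84 ± 0.13 and Bbc3, which encodes PUMA, lower, at -0.60 ± 0.13.

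Ion channels were more often lower than higher, and G protein-coupled receptors moved in both directions. Of 34 channels, 10 were lower and 2 higher (higher 1 to 3 with 1 library left out, over 1.5 times away without KO IL-4 libraries 2 and 3 or WT IL-4 libraries 2 and 3). Kcnn4, the calcium-activated potassium channel KCa3.1, had 256, 254 and 293 CPM in KO libraries, against 621, 679 and 571 CPM in WT libraries (log2 fold change -1.22 ± 0.092, adjusted p = 1.6e-06). Kcna3, the voltage-gated channel Kv1.3, had 4.90, 4.24 and 5.08 CPM in KO libraries, against 14.1, 11.4 and 9.58 CPM in WT libraries (log2 fold change -1.30 ± 0.18, adjusted p = 0.00015). With Kcnj2, these potassium channel genes were below the WT range in every KO library. Itpr3, the calcium release channel of the endoplasmic reticulum, and Hvcn1, the proton channel that supports the oxidative burst, were lower, at -1.13 ± 0.21 and -0.31 ± 0.062 on the log2 scale. Of 40 purine and lipid receptors, 7 were higher and 10 lower (lower 5 to 10 with 1 library left out, over 1.5 times away without KO IL-4 libraries 1 and 2 or WT IL-4 library 1). Without both KO libraries numbered 2 the balance turned, with 6 higher and 5 lower. Gpr35 had 14.98, 15.7 and 12.8 CPM in KO libraries, against 4.99, 4.53 and 4.24 CPM in WT libraries (log2 fold change 1.66 ± 0.16, adjusted p = 1.0e-05). P2ry1, the ADP receptor, had 11.8, 10.8 and 13.3 CPM in KO libraries, against 32.5, 24.2 and 29.2 CPM in WT libraries (log2 fold change -1.26 ± 0.12, adjusted p = 1.0e-05). Gpr183, the oxysterol receptor EBI2, was lower, at -0.79 ± 0.13, and S1pr1, a receptor of sphingosine 1-phosphate, higher by 0.72 ± 0.080.

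Genes next to the altered loci were compared with the rest, to see whether calls gather there. Within 1 Mb of Stk11, 17 of 78 genes were called (21.8%), against 18.8% of all genes. Of the 78, 3 were higher (3.85%, against 8.57% of all genes) and 14 lower (17.9%, against 10.2% of all genes), with a median log2 fold change of -0.10. Dot1l, a histone methyltransferase gene, was lower, at -0.91 ± 0.13 and Shc2 at -1.40 ± 0.30, and Palm was higher by 0.92 ± 0.17. Within 1 Mb of Lyz2, the Cre locus, 5 of 14 were called (35.7%), all higher, with a median of 0.15. Lyz1, the neighbouring lysozyme gene whose reads may be shared with Lyz2, had 23.6, 78.5 and 31.4 CPM in KO libraries, against 9.48, 10.96 and 10.7 CPM in WT libraries (log2 fold change 2.10 ± 0.39, adjusted p = 0.0019), with KO library 2 the highest. Mdm2, the p53 ligase gene, was higher by 0.35 ± 0.078.

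Whether the genotype difference itself depended on IL-4 was tested gene by gene. The interaction, the genotype log2 fold change with IL-4 minus that in mock, was called for 101 genes (0.736%), 45 (0.328%) with a more positive and 56 (0.408%) with a more negative difference with IL-4. This count is unstable. With the culture number as a block within each genotype 1596 genes were called, all 101 among them. In the fit without that block, edgeR called 0 with both KO libraries numbered 2 left out, with 2292 genes at an unadjusted p under 0.05. Without KO IL-4 library 1 that fit also called 0, with 2321 at that p. DESeq2 on all 12 libraries called 751. Thbs1, already higher in mock, was further from WT with IL-4 (interaction 1.48 ± 0.31, adjusted p = 0.046), as were Vegfa (1.02 ± 0.20, 0.036) and Nr4a1 (0.96 ± 0.19, 0.038).

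Some genes were called between the genotypes in a single condition. Fzd1, a WNT receptor, had 24.3, 28.3 and 19.5 CPM in KO and 10.6, 8.52 and 8.57 CPM in WT libraries with IL-4, against 13.7, 15.0002 and 11.2 CPM in KO and 12.2, 9.55 and 12.4 CPM in WT libraries in mock (interaction 1.16 ± 0.22, adjusted p = 0.036). The genotypes were apart with IL-4, and in mock the difference did not pass the test. Dok2, an adaptor that dampens RAS signalling, had 81.5, 85.1 and 84.2 CPM in KO and 170.2, 178 and 141 CPM in WT libraries with IL-4, and 61.7, 57.7 and 58.7 CPM in KO and 67.9, 62.8 and 67.9 CPM in WT libraries in mock (interaction -0.81 ± 0.11, adjusted p = 0.015). Gamt, which lies 127.5 kb from Stk11, was lower with IL-4 (-0.76 ± 0.11) and not called in mock (0.043 ± 0.11), with an interaction of -0.81 ± 0.16 (adjusted p = 0.038). Fn1, fibronectin, showed the reverse: 0.12 ± 0.22 with IL-4 and -1.49 ± 0.24 in mock (interaction 1.61 ± 0.33, adjusted p = 0.042), so the mock difference was the larger one.

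**Figure D4:**
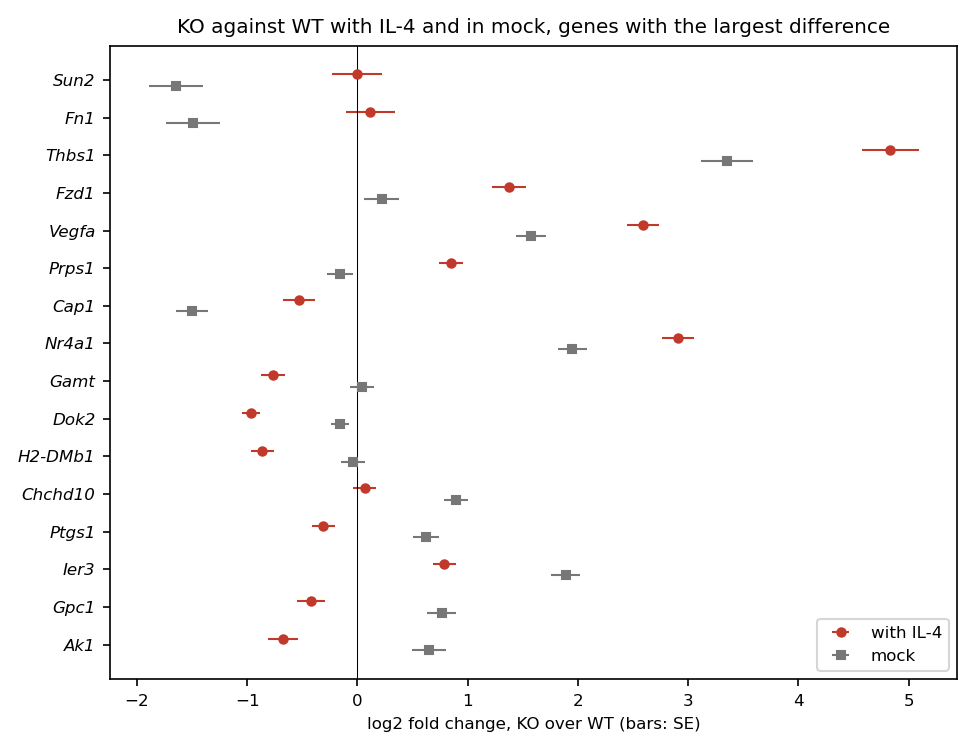
Genotype log2 fold change (KO over WT, horizontal axis, bars are SE) with IL-4 (red circles) and in mock (grey squares) for the 16 genes with the largest called interactions among abundant genes. Thbs1, Vegfa and Nr4a1 are higher in both conditions, and Fzd1 and Dok2 differ mainly with IL-4.

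The cells in the IL-4 libraries were checked against marker lists. The summed CPM of 10 macrophage markers ran from 10659 to 11076 in KO and from 11994 to 12209.5 in WT libraries. Of the 10, 2 were higher (Mertk and Cd14) and 3 lower, C1qa and C1qb among them, with a median log2 fold change of -0.017. Csf1r and Cd68 were not called, at log2 fold changes of 0.0039 and 0.0029. Neutrophil markers were higher in KO in 10 of 15 measured (5 without KO IL-4 library 2), and the highest sum was that of KO library 2. Ltf, lactoferrin of neutrophil granules, had 62.2, 227 and 137 CPM in KO libraries, against 16.4, 33.3 and 47.9 CPM in WT libraries (log2 fold change 2.13 ± 0.49, adjusted p = 0.0069). Mmp9, a gelatinase that neutrophils also store in granules, was higher by 1.77 ± 0.41 on the log2 scale. S100a9 was higher by 1.96 ± 0.47, with adjusted p = 0.054 without KO IL-4 library 2, and Lcn2 by 1.88 ± 0.45, with adjusted p = 0.062 without KO IL-4 library 2, and of 0.052 without WT IL-4 library 1. Of the defining genes, Ly6g stood at 0.0620, 0.575 and 0.405 CPM in KO libraries, against 0.0499, 0.134 and 0.246 CPM in WT libraries. Mpo, myeloperoxidase, stood at 0, 0.274 and 0.135 CPM in KO libraries, against 0.0748, 0.134 and 2.06 CPM in WT libraries, and in both genes the groups overlapped. Monocyte markers summed to 35.1 to 51.9 in KO and to 40.8 to 59.7 in WT libraries. Of the 7 measured, 3 were higher in KO and 2 lower. A large part of the KO sums was Nr4a1, given above as a CREB target higher in KO, while Ccr2 and Cx3cr1 were lower. T and B cell markers summed to 8.90 to 13.1 in KO and to 17.4 to 19.6 in WT libraries. Of the 4 measured, 1 was higher in KO (0 to 1 with 1 library left out) and 1 lower. For dendritic cell markers the sums were 67.01 to 79.7 in KO and 81.3 to 90.3 in WT libraries. Of the 5 measured, only Batf3, given above, was called lower and 0 were higher, and their median log2 fold change was 0.18. Stromal markers summed to 7.76 to 14.7 in KO and to 5.06 to 8.36 in WT libraries. Mast cell and basophil markers summed to 1.05 to 10.2 in KO and to 2.30 to 3.44 in WT libraries. What share of the differences above other cells contribute was not tested.

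**Figure D5:**
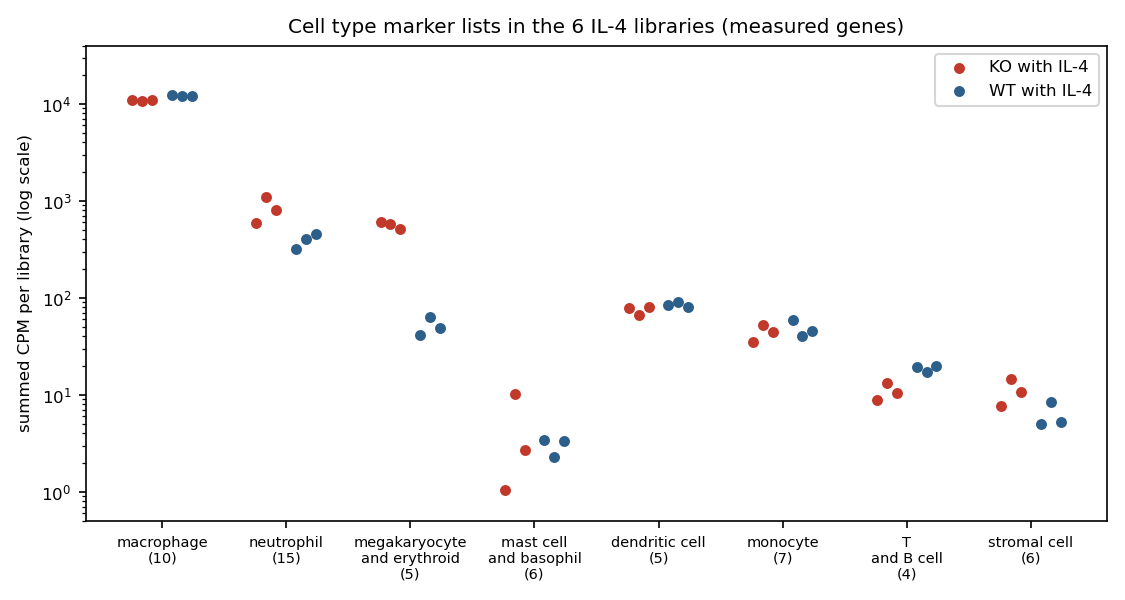
Summed CPM per IL-4 library (vertical axis, log scale) of 8 cell type marker lists, KO in red left of WT in blue, with the number of measured genes in brackets. Macrophage markers dominate in all 6 libraries, and neutrophil markers are higher in KO. The megakaryocyte and erythroid sum is almost wholly Pf4.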

How the data were processed

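Raw whole-number read counts per gene were deposited in a table that also gives, per the file headers, the authors' log2 CPM, log2 fold changes and adjusted p-values. The submitters' processing notes name STAR 2.7.2b, bcl2fastq, Subread 1.6.5 with featureCounts, and edgeR, on mm10. The strand setting is not given in the sources used here, and reads of overlapping or antisense genes may be mixed. The lowest gene total in the table was 50.

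The counts entered edgeR 4.0.16 (R 4.3.3, quasi-likelihood, TMM) in 1 fit of 12 libraries with 4 group terms, a common dispersion of 0.0115 and 8 residual degrees of freedom. filterByExpr removed 0 genes. Calls are Benjamini-Hochberg adjusted p under 0.05 over 13715 genes. CPM used TMM library sizes. Replicates differed by more than sampling noise (chi-square per degree of freedom 13.6 to 60.5). Deviations of same-numbered mock and IL-4 libraries within a genotype correlated at 0.229 to 0.579. The culture block takes such libraries as 1 culture, which the labels do not state. Members, lists and rules were chosen with earlier results of these data known. Named genes were Stk11, Lyz2, 4 IL-4 markers, the 15 largest rises and falls, 8 by CPM difference, 8 interactions per direction, up to 6 per list (any in short lists), cell type markers and neighbours within 1 Mb. Alternatives used DESeq2 1.42.0 and limma 3.58.1. Promoters came from RefSeq for GRCm38.p6, of which 9918 tested genes had one. The values of 1 further list member are not reported here.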

Additional observations from a re-analysis of the deposited data

Results flagged for a closer look

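Of the 101 genes whose KO against WT difference with IL-4 departed from that in mock by the interaction term at an adjusted p under 0.05, the 8 largest in each direction with a mean log2 CPM of at least 3 are given. The culture block raised the count to 1596. Without that block, leaving out KO IL-4 library 1 gave 0 in edgeR, with 2321 at an unadjusted p under 0.05. Values are log2 fold changes with SE.

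The difference with IL-4 was the more positive in 8. Sun2, a nuclear envelope protein, had an interaction of 1.65 ± 0.33 (-0.00090 ± 0.23 with IL-4 and -1.65 ± 0.25 in mock) and Fn1 of 1.61 ± 0.33 (0.12 ± 0.22 with IL-4 and -1.49 ± 0.24 in mock). Thbs1 had 1.48 ± 0.31 (4.83 ± 0.26 with IL-4 and 3.36 ± 0.23 in mock), Vegfa 1.02 ± 0.20 (2.59 ± 0.15 with IL-4 and 1.58 ± 0.14 in mock) and Nr4a1 0.96 ± 0.19 (2.91 ± 0.14 with IL-4 and 1.95 ± 0.13 in mock), so these were higher in KO in both conditions. Fzd1 had 1.16 ± 0.22 (1.38 ± 0.16 with IL-4 and 0.22 ± 0.16 in mock) and Prps1, which starts nucleotide synthesis, 1.005 ± 0.16 (0.85 ± 0.11 with IL-4 and -0.15 ± 0.12 in mock). Cap1, an actin regulator, had 0.97 ± 0.20 (-0.53 ± 0.14 with IL-4 and -1.50 ± 0.15 in mock). The Cap1 interaction was not called in 13 of 21 alternative runs.

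The difference with IL-4 was the more negative in the other 8. Ak1, adenylate kinase 1, had an interaction of -1.32 ± 0.21 (-0.68 ± 0.14 with IL-4 and 0.65 ± 0.15 in mock) and Gpc1, a glypican, of -1.18 ± 0.18 (-0.42 ± 0.13 with IL-4 and 0.76 ± 0.13 in mock), both with opposite signs in the 2 conditions. Ier3, an immediate-early gene, had -1.10 ± 0.17 (0.79 ± 0.11 with IL-4 and 1.89 ± 0.13 in mock). Ptgs1, cyclooxygenase-1, had -0.94 ± 0.16 (-0.31 ± 0.10 with IL-4 and 0.62 ± 0.12 in mock) and Chchd10, a mitochondrial protein, -0.83 ± 0.15 (0.065 ± 0.10 with IL-4 and 0.90 ± 0.11 in mock). H2-DMb1, of the class II peptide loader, had -0.82 ± 0.15 (-0.86 ± 0.11 with IL-4 and -0.043 ± 0.11 in mock), Dok2 -0.81 ± 0.11 (-0.97 ± 0.081 with IL-4 and -0.16 ± 0.081 in mock) and Gamt -0.81 ± 0.16 (-0.76 ± 0.11 with IL-4 and 0.043 ± 0.11 in mock). Of 21 alternative runs, the interaction was not called in 8 for Chchd10, 4 for Ak1 and 2 for Dok2. No gene was called without KO IL-4 library 1 or without both KO libraries numbered 2. Thus none of the genes given here, in either direction, kept its interaction call in every run. Such counts are not given for the remaining genes, which need not be more stable.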

How the results depend on the processing

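Of 406 called results for named genes, 296 kept direction and call under every alternative run, 110 lost the call under at least 1, and 0 reversed. Without both KO libraries numbered 2, the count with IL-4 was 1596 (715 higher, 881 lower), of which 1554 were also called with all libraries. With 1 library left out the count ran between 1658 (without WT IL-4 library 1) and 2686, higher between 775 and 1265 and lower between 883 and 1479. Same-numbered KO and WT IL-4 libraries did not deviate together in every pair (correlations -0.273, -0.209 and 0.175), and a replicate block on the number gave 2496 over 12 libraries and 1670 (763 higher, 907 lower) over the 6 IL-4 libraries. The culture pairing in a random block with limma-voom gave 2680. Other scalings, filters and DESeq2 gave 2524 to 2862, and removal of the length trend 2971. The genes of the lists gave 408 to 542 calls with 1 library left out, against 530.

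The interaction, 101 genes (45 and 56), fell to 65 (41 and 24) with library size alone and to 0 (0 and 0) in edgeR without both KO libraries numbered 2, where 2292 had an unadjusted p under 0.05. It came to 751 (324 and 427) with DESeq2, 142 (58 and 84) with a mean CPM of at least 1, 122 (51 and 71) with the length trend removed, 1596 (891 and 705) with the culture as a replicate block, and 930 (415 and 515) with that block and length. In the fit without the culture block, leaving out 1 library gave 0 (without KO IL-4 library 1) to 102, 0 to 32 more positive and 0 to 75 more negative. The cause was not tested. At these depths genes with a few counts cannot show small differences.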

Other observations

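Further gene lists are given by their counts, against 18.8% of all genes called. Clock genes (23.5% called) and prostaglandin and leukotriene genes (22.2%) were near that share. Of 36 autophagy genes 10 were higher and 1 lower, with Sqstm1, the cargo receptor p62, at 1226, 1213 and 1108 CPM in KO libraries, against 789, 937 and 929.8 CPM in WT libraries (log2 fold change 0.42 ± 0.074, adjusted p = 0.0013). Of 18 osteoclast and fusion genes 6 were higher and 5 lower (lower 3 to 5 with 1 library left out, over 1.5 times away without KO IL-4 library 1, WT IL-4 libraries 1 and 3 or WT mock library 2). Acp5, tartrate-resistant acid phosphatase, had 270.4, 313 and 284 CPM in KO libraries, against 134, 149 and 148 CPM in WT libraries (log2 fold change 1.01 ± 0.070, adjusted p = 8.9e-07), above the WT range in every KO library. Of 17 clock genes 3 were higher and 1 lower. Nr1d1, the repressor REV-ERBα, had 5.03, 4.49 and 5.94 CPM in KO libraries, against 1.82, 3.08 and 3.01 CPM in WT libraries (log2 fold change 0.97 ± 0.18, adjusted p = 0.0020) and Npas2, an activator, 0.465, 0.712 and 0.865 CPM in KO libraries, against 3.12, 1.74 and 1.63 CPM in WT libraries (log2 fold change -1.66 ± 0.35, adjusted p = 0.0044), in opposite directions.

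Of 36 interferon-stimulated genes 8 were higher and 1 lower (higher 4 to 9 with 1 library left out, over 1.5 times away without KO IL-4 library 1). Rsad2, the antiviral enzyme viperin, was higher by 0.67 ± 0.15 on the log2 scale and Oasl2 by 0.49 ± 0.11. Cytosolic ribosomal protein genes were lower in 26 of 52 (lower 10 to 41 with 1 library left out, over 1.5 times away without KO IL-4 libraries 1, 2 and 3 or WT IL-4 libraries 2 and 3). With each library's trend of expression on gene length removed, 40 were lower. In mock 6 of them were lower. The summed CPM of the 52 genes with IL-4 was 3804, 3701 and 3907 in KO libraries, against 4561, 5681 and 4290 in WT libraries, WT library 2 being the highest.

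Of 18 prostaglandin and leukotriene genes 1 was higher and 3 lower (higher 1 to 2 with 1 library left out). Pla2g7, which breaks down platelet-activating factor, had 1247, 1249.7 and 1118 CPM in KO libraries, against 585, 599 and 630.1 CPM in WT libraries (log2 fold change 0.995 ± 0.081, adjusted p = 3.2e-06), and Ephx1, an epoxide hydrolase, 37.5, 40.9 and 40.6 CPM in KO libraries, against 83.7, 82.2 and 68.2 CPM in WT libraries (log2 fold change -0.98 ± 0.10, adjusted p = 2.2e-05). Among lineage transcription factors Mef2c was lower, with 32.8, 31.6 and 38.1 CPM in KO libraries, against 72.7, 62.7 and 62.6 CPM in WT libraries (log2 fold change -0.95 ± 0.13, adjusted p = 0.00017), every KO library being under the WT range.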
